A study of Saccharomyces cerevisiae with 8 samples.

Results

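The set described here holds 47 open reading frames (ORFs) of budding yeast that carry no gene name, only a systematic name such as YPR078C. They carry the label of a middle gene pattern. The same thresholds were met by 370 named genes, among them 44 of 48 middle meiotic genes and 5 of 7 late genes. The middle genes were listed with earlier results of these arrays known, so their count is not independent evidence for the label. The 47 ORFs were selected on measured values from 422 unnamed ORFs and 5445 genes in all, each read by 1 gene-specific probe set. A member had to rise at least 2-fold from 0 h to 4 h in both rad50delta and spo11Y135F, and the mean of these 2 arrays at 4 h had to lie at least 2-fold above the array labelled mre11delta at 4 h. All differences are on the scale of log2(signal + 7), where 1 stands for 2-fold. The values of these 5 arrays therefore chose the members and are given as a description. The arrays of wild type at both times and of mre11delta at 0 h had no part in the choice. With 1 array per strain and time no value of a strain carries an error, and neither a change within 1 strain nor a difference between strains could be tested. A test of the time change over all 4 strains was not made, since the arrays it would rest on chose the members. A rise or a fall below means a difference of at least 2-fold on this scale and nothing more.

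Diploids of Saccharomyces cerevisiae with the fast-sporulating SK1 background were sampled at 0 h, after growth in presporulation medium, and after 4 h in sporulation medium. Wild type was strain MJL1720, mre11delta was YMD1599, rad50delta was RKD101 and spo11Y135F, a point mutant, was RKD1312, so that each genotype is 1 strain. Mre11 and Rad50 belong to a complex that makes and processes meiotic DNA breaks, and Spo11 makes the cut itself. Polyadenylated RNA was hybridised to Affymetrix YG-S98 arrays.

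Meiotic genes of yeast are switched on in waves. Early genes serve DNA replication, pairing and recombination, and middle genes, which act in the meiotic divisions and in building the spore, follow when the transcription factor Ndt80 becomes active. Many middle genes are kept silent before that by the repressor Sum1, which recognises the same promoter element as Ndt80, and a checkpoint that senses unrepaired breaks holds Ndt80 back. An ORF without a gene name is one whose product had no accepted name when the annotation was made. The annotation used here gives no product for these ORFs, and no function is stated for any of them.

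The arrays had these properties as a whole. RAD50 had a signal of 0.6 and 3.4 in rad50delta and of 88.4 to 758 in the other arrays, whereas MRE11 read 84.0 and 108 in the arrays labelled mre11delta, inside the 45.0 to 192 of the others, so that every statement on mre11delta rests on the label. SPO11, an early gene, read 1.2 to 2.2 at 0 h and 349 in wild type, 322 in mre11delta, 469 in rad50delta and 94.2 in spo11Y135F at 4 h. Trizol was used to extract RNA for the 2 arrays of mre11delta and for wild type at 0 h, and glass beads with RNeasy columns for the other 5. At 4 h, extraction method and the label mre11delta cannot be told apart, while wild type, rad50delta and spo11Y135F share a method. The median signal of all genes at 4 h was 185.5 in wild type, 385 in mre11delta, 342 in rad50delta and 267 in spo11Y135F. The median over all genes of wild type minus mre11delta at 4 h was -0.91 (log2), and each count below has to be read against the share of all genes that pass the same line. The 27 measured early genes mark cells in meiotic prophase. Their summed signal was 420 to 1587 at 0 h and 25233 to 42882 at 4 h, and at 4 h at most 1 of them was below a signal of 21 in any array. The 18 haploid-specific genes, which a/alpha diploids repress, summed to 984 to 1997 at 0 h, and at 4 h to 1646 in wild type, 3159 in mre11delta, 4809 in rad50delta and 6998 in spo11Y135F. The 13 genes of the mitotic cycle summed to 1478 to 2485 at 0 h, and at 4 h to 1626, 3908, 4252 and 5782 in the same order of strains. At 4 h both sums run in the same direction as the members between wild type and the 2 selected mutants. The median difference of the mean of these mutants from wild type was 0.40 (log2) in the haploid-specific genes. It was 0.97 in the mitotic genes and 0.45 in all genes. FAR1, STE4 and STE18 of the first list and CDC20 of the second met the thresholds of the members themselves. The part of both lists in the results was not tested.

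The label of the set was read against named genes. Of 48 named middle genes, 44 met all the thresholds that chose the members, and of 27 named early genes 0 did. Of 7 spore wall and late genes 5 met them, while 7.66% of all genes did. The list of middle genes was drawn up with earlier results of these arrays known, so that its count is not independent evidence for the name of the pattern. NDT80 itself read 49.2 in wild type, 54.4 in mre11delta, 115 in rad50delta and 134.5 in spo11Y135F at 0 h, and 226, 165, 936 and 1689 in the same order at 4 h. Its signal at 4 h was highest in rad50delta and spo11Y135F, the 2 strains in which the members were chosen to be high. Both were above wild type and mre11delta at 4 h in 24.6% of all genes. NDT80 is itself 1 of the 48 listed middle genes, and its part in the values of the members was not tested. SUM1 read 370, 448, 204 and 288 at 0 h and 146, 324, 176 and 221 at 4 h in the same order. Among the middle genes with the brightest probe sets, SPR6, a sporulation gene, read 585 in wild type, 1104 in mre11delta, 8635 in rad50delta and 13298 in spo11Y135F at 4 h. IRC18, a gene of the spore wall, read 848, 192, 7372 and 9846, and SGA1, the glucoamylase that breaks down glycogen in sporulation, read 143, 537, 5549 and 9553. AQY1, a water channel of spores, read 6192, 7334, 8876 and 6805 and was 1 of the 4 middle genes outside the thresholds.

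In the arrays that chose them, the members differed widely in the size of their change. The rise in rad50delta ran from 1.05 to 8.97 (log2) with a median of 2.94, and the rise in spo11Y135F from 1.07 to 8.98 with a median of 4.11. Of all genes 19.3% rose in both mutants, and the mean of both mutants lay at least 2-fold above mre11delta at 4 h in 10.0% of all genes. The difference from mre11delta at 4 h ran from 1.01 to 8.48 over the members with a median of 2.88. It was the smallest of the 3 values for 26 members, the rise in rad50delta for 18 and the rise in spo11Y135F for 3.

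**Figure D1:**
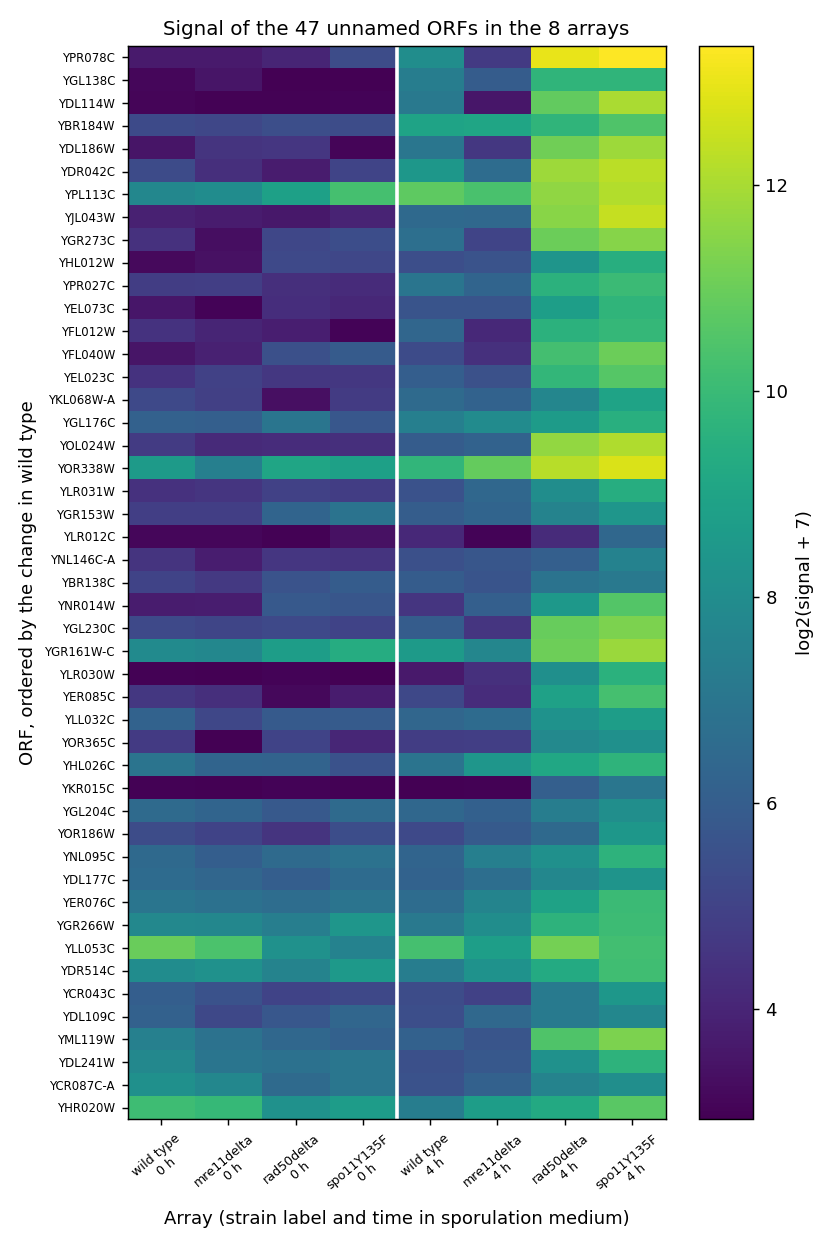
Signal of the 47 unnamed ORFs as log2(signal + 7) in each of the 8 arrays, 1 row per ORF, with the 0 h arrays to the left of the white line and the 4 h arrays to the right. Rows are ordered by the change in wild type, from YPR078C (4.36) to YHR020W (-2.77), and the rad50delta and spo11Y135F arrays at 4 h are the brightest part of most rows because they chose the members.

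The members farthest past all 3 thresholds had signals of at most 34.5 at 0 h. YPR078C read 5.7 in wild type, 5.9 in mre11delta, 9.1 in rad50delta and 33.5 in spo11Y135F at 0 h, and 254, 18.7, 8082 and 10418 in the same order at 4 h. The array labelled mre11delta at 4 h stayed inside the range of the 0 h arrays, wild type stood above it, and the 2 selected mutants stood far above both. YDL114W read 1.3, 1.0, 1.0 and 1.2 at 0 h and 134 in wild type, 4.9 in mre11delta, 1833.5 in rad50delta and 4122.5 in spo11Y135F at 4 h. YDL186W read 4.6, 15.3, 17.1 and 1.5 at 0 h and 124, 17.4, 2162 and 3576 at 4 h. YGR273C read 14.5, 2.9, 27.9 and 34.5 at 0 h and 100.5, 26.5, 2073 and 2790.5 at 4 h. All 4 ORFs have the same order of strains at 4 h, with mre11delta lowest, then wild type, rad50delta and spo11Y135F.

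Other members with bright probe sets at 4 h differed from these in mre11delta or at 0 h. YJL043W read 7.7 in wild type, 6.1 in mre11delta, 5.0 in rad50delta and 8.5 in spo11Y135F at 0 h, and 82.3, 80.4, 2888 and 5577 at 4 h. YOL024W read 20.0, 11.2, 12.0 and 13.3 at 0 h and 55.8, 66.2, 3190.5 and 4351 at 4 h. In these 2 ORFs wild type and mre11delta differed little at 4 h, and both stood above all 0 h arrays. YDR042C read 32.8, 13.2, 6.3 and 26.5 at 0 h and 341, 89.6, 3584 and 4979 at 4 h, again with mre11delta lowest at 4 h. YOR338W was already well measured at 0 h, at 383.5, 165, 530 and 456, and read 864, 1891, 4794 and 7014 at 4 h. YPL113C read 206, 248, 453 and 1222 at 0 h and 1718, 1308, 3148 and 4582 at 4 h. YOR338W and YPL113C thus rose in all 4 strains.

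At the edge of the thresholds the values were as follows. YHL026C lay just inside, with the mean of rad50delta and spo11Y135F 1.01 (log2) above mre11delta at 4 h, as did YDL109C at 1.02. YHL026C read 115 in wild type, 70.7 in mre11delta, 69.2 in rad50delta and 40.2 in spo11Y135F at 0 h, and 116, 333, 549.6 and 833.5 at 4 h. YDL109C read 63.9, 29.4, 47.0 and 74.6 at 0 h and 36.7, 79.3, 136 and 207 at 4 h. Both rose in mre11delta and not in wild type. YHR020W rose by 1.05 in rad50delta and YCR087C-A by 1.06, which were the smallest of their 3 values. Just outside were YDR222W, with a difference of 0.95 from mre11delta at 4 h, YKR005C at 0.94 and YGR122W at 0.88, and YIL046W-A, which rose by 0.90 in rad50delta. YDR222W read 500.3 in wild type, 466 in mre11delta, 30.7 in rad50delta and 14.1 in spo11Y135F at 0 h, and 67.2, 128, 183 and 351 at 4 h, with wild type and mre11delta falling and the others rising. YGR122W read 70.7, 79.9, 62.3 and 129.7 at 0 h and 79.3, 144, 275 and 269.7 at 4 h. YIL046W-A read 7.8, 11.7, 51.2 and 30.7 at 0 h and 75.8, 29.1, 102 and 122 at 4 h, and its largest rise was that in wild type. YKR005C read 93.8 in wild type, 49.8 in mre11delta, 107 in rad50delta and 131 in spo11Y135F at 0 h, and 2135, 2206, 4094 and 4374 at 4 h, a rise in all 4 strains.

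Wild type did not enter the choice. From 0 h to 4 h, 22 of the 47 members (46.8%) rose in wild type, against 23.9% of unnamed ORFs and 15.8% of all genes. A fall was seen in 4 members (8.51%), against 15.9% of unnamed ORFs and 29.8% of all genes. The median change was 0.94 (log2) for the members, 0.04 for unnamed ORFs and -0.33 for all genes. A rise of at least 4-fold was seen in 12 members (25.5%), against 6.04% of all genes. Of the 1049 genes that rose in both rad50delta and spo11Y135F, 37.8% also rose in wild type and 157 fell there. Much of the members' share of rises is thus also found among genes chosen by the 2 rises alone. Of the 370 named genes that met all the thresholds 32.4% rose in wild type. The named middle genes moved further, with 38 of 48 rising and a median of 2.69. In wild type alone, the 0 h and 4 h samples were extracted by different methods, and the part of this in its change was not tested. With the arrays centred on their medians 26 members rose in wild type, against 21.2% of all genes.

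The 6 largest rises in wild type were those of YPR078C at 4.36, YGL138C at 4.24, YDL114W at 4.08, YBR184W at 3.69, YDL186W at 3.50 and YDR042C at 3.13. YGL138C read 1.7 in wild type, 4.3 in mre11delta, 0.7 in rad50delta and 0.7 in spo11Y135F at 0 h, and 157, 55.5, 841 and 862 at 4 h. YBR184W read 31.9, 28.7, 36.2 and 33.7 at 0 h and 495, 517, 852 and 1403 at 4 h. In YBR184W all 4 strains at 4 h stood above all 4 at 0 h, with wild type and mre11delta close together and below the other strains. In all 6 the rise in wild type was smaller than the rise in rad50delta and in spo11Y135F.

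The 4 members that fell in wild type were YHR020W at -2.77, YCR087C-A at -2.59, YDL241W at -2.31 and YML119W at -1.30. YHR020W read 1103 in wild type, 948 in mre11delta, 288 in rad50delta and 401.5 in spo11Y135F at 0 h, and 156, 417, 604 and 1657 at 4 h. YCR087C-A read 278, 208, 84.4 and 122 at 0 h and 40.4, 65.5, 184 and 264 at 4 h. Both ORFs were higher in wild type and mre11delta than in the other strains at 0 h and lower at 4 h, and 0 h was split by extraction method in the same way. YDL241W read 214, 118, 106 and 123 at 0 h and 37.7, 47.9, 287 and 809 at 4 h. YML119W read 171, 110, 77.6 and 65.2 at 0 h and 65.5, 44.7, 1415 and 2478 at 4 h. Of these 4 only YML119W met the thresholds both with the arrays centred on their medians and with quantile normalization.

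**Figure D2:**
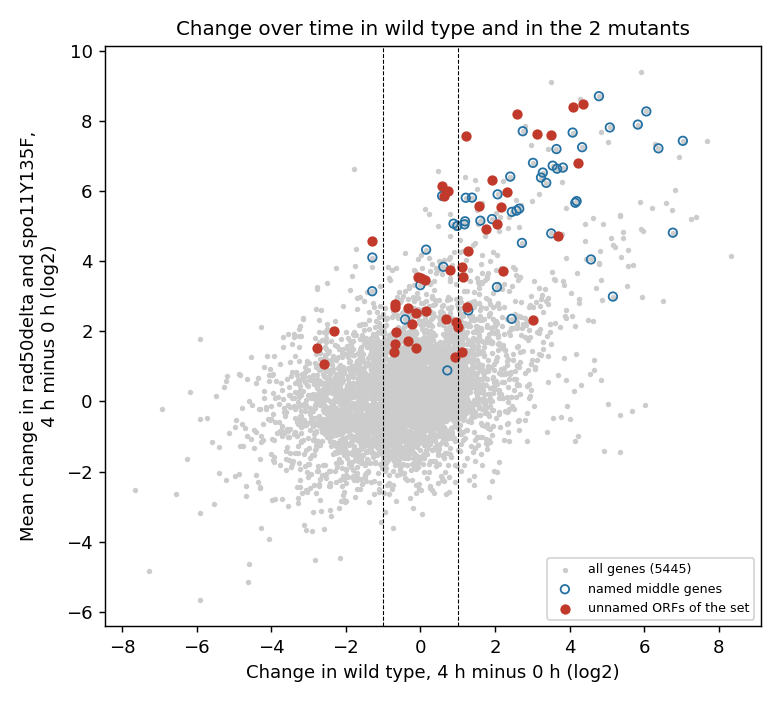
Change from 0 h to 4 h in wild type (horizontal axis, log2) against the mean change in rad50delta and spo11Y135F (vertical axis, log2), 1 point per gene, with all 5445 genes in grey, the 48 named middle genes as open circles and the 47 unnamed ORFs as filled points. Dashed lines mark 2-fold in wild type, with 22 of the ORFs to the right of them and 4 to the left, and the height of the ORFs was fixed by the choice.

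The array labelled mre11delta at 4 h was used as the low side of the thresholds, and its change over time is a description. In mre11delta 23 of the 47 members (48.9%) rose, near the 40.5% of all genes, and 5 fell, against 9.72% of all genes. With the arrays centred on their medians 13 members rose in mre11delta, against 17.8% of all genes. Sorted by wild type and mre11delta together, 15 members (31.9%) rose in both, 7 in wild type alone, 8 in mre11delta alone (17.0%) and 17 in neither (36.2%). Of all genes 14.8% rose in both, 25.6% in mre11delta alone and 58.5% in neither. Of the named genes that met the thresholds these shares were 27.6%, 18.6% and 48.9%. The named middle genes differed from the members here, with 64.6% in both, 4.17% in mre11delta alone and 16.7% in neither. Besides ORFs named above, the 15 include YEL073C, YGL176C, YGR153W, YHL012W, YKL068W-A, YLR031W and YPR027C, whose changes in wild type lay between 1.12 and 2.21. The 7 that rose in wild type alone were YDL114W, YDL186W, YEL023C, YFL012W, YFL040W, YLR012C and YPR078C. YPR078C lay at the line, with a change of 0.99 (log2) in mre11delta, and its 2 other probe sets rose there. Genes that rose in wild type alone are 0.992% of all genes, 4.86% of the named genes that met the thresholds and 14.6% of the named middle genes. Their share of the members was 14.9%, though the low value of mre11delta at 4 h is part of the choice. The 8 that rose in mre11delta alone were YDL109C, YHL026C, YLL032C, YLR030W, YNL095C, YNL146C-A, YNR014W and YOR365C. The 17 that rose in neither had a median difference of 2.63 between the mean of the 2 selected mutants and wild type at 4 h. Besides the 4 that fell in wild type they were YBR138C, YCR043C, YDL177C, YDR514C, YER076C, YER085C, YGL204C, YGL230C, YGR161W-C, YGR266W, YKR015C, YLL053C and YOR186W.

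Among these groups the ORFs named next were picked after their values were seen, as examples. YFL012W read 14.6 in wild type, 9.0 in mre11delta, 7.1 in rad50delta and 1.2 in spo11Y135F at 0 h and 75.4, 10.7, 774 and 926 at 4 h. YGL230C read 30.1, 27.1, 30.1 and 25.2 at 0 h and 55.1, 15.9, 1937 and 2501 at 4 h. YGL230C was level over the 4 strains at 0 h, and at 4 h wild type lay less than 2-fold above and mre11delta less than 2-fold below its 0 h value. YKR015C was read at 0.6 to 1.2 in 6 arrays and at 61.0 in rad50delta and 124 in spo11Y135F at 4 h.

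**Figure D3:**
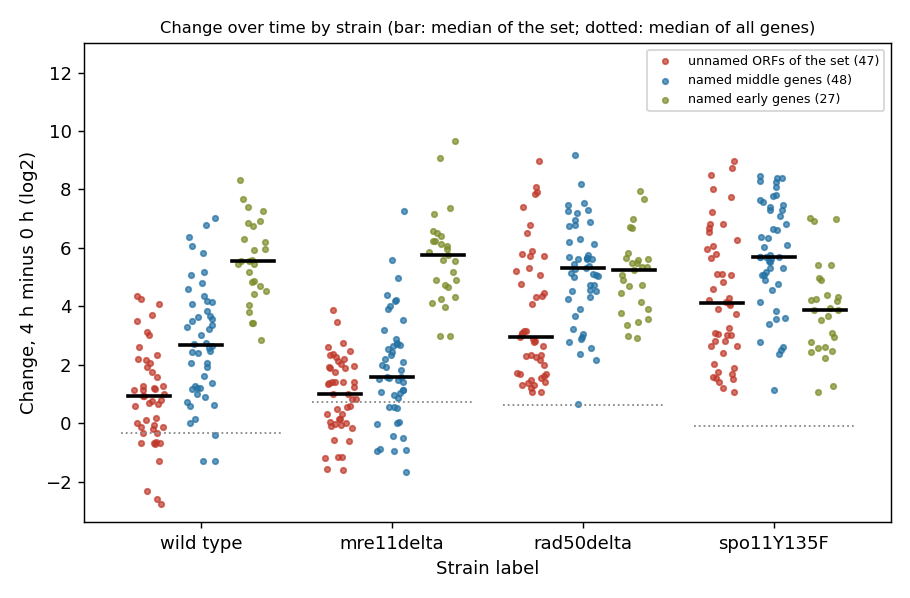
Change from 0 h to 4 h (log2) in each strain for the 47 unnamed ORFs, 48 named middle genes and 27 named early genes, 1 point per gene, with the median of each set as a bar and the median of all genes as a dotted line. The ORFs have medians of 0.94 in wild type, 0.99 in mre11delta, 2.94 in rad50delta and 4.11 in spo11Y135F, of which the last 2 were fixed from below by the choice.

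At 4 h wild type stood below the 2 selected mutants. The mean of rad50delta and spo11Y135F was at least 2-fold above wild type in 46 of 47 members, against 28.2% of all genes, 97.8% of the named genes that met the thresholds and 45 of 48 named middle genes, while 0 of 27 named early genes passed that line. The 3 arrays share an extraction method, but the arrays of the 2 mutants chose the members, so that nothing is read from the size of this count. The median of the difference was 2.81 (log2) against 0.45 for all genes. The exception was YLL053C at 0.39, which read 1969 in wild type, 1334 in mre11delta, 290 in rad50delta and 179.5 in spo11Y135F at 0 h, and 1232, 433, 2270 and 1149 at 4 h. Both rad50delta and spo11Y135F were above both wild type and mre11delta at 4 h in 46 members, again with YLL053C as the exception, and in 24.6% of all genes.

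Wild type against mre11delta at 4 h depended on the scaling of the arrays. As deposited, wild type was at least 2-fold above mre11delta in 10 members (21.3%), against 1.71% of all genes, 14.6% of the named genes that met the thresholds and 24 of 48 named middle genes. It was at least 2-fold below in 6 members, against 44.9% of all genes. The median difference of the members was -0.06 as deposited and 0.97 with the arrays centred on their medians, when 23 members were at least 2-fold higher in wild type against 8.69% of all genes. Because mre11delta at 4 h was chosen to be low, a share above that of all genes is partly built into the set. The largest differences were those of YDL114W at 3.56, YPR078C at 3.35 and YDL186W at 2.42, and the lowest that of YNR014W at -1.53.

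At 0 h the median difference between the mean of rad50delta and spo11Y135F and the mean of wild type and mre11delta was -0.01 (log2), as it was for all genes, and it ran from -2.79 in YLL053C to 2.03 in YNR014W. Both selected mutants were below both other strains at 0 h in 11 members (23.4%), near the 22.3% of unnamed ORFs, against 35.8% of all genes. They were above both in 15, a share of 31.9% that was the same over all genes, against 40.8% of unnamed ORFs. Among the 48 named middle genes they were above both in 26 (54.2%) and below both in 7 (14.6%). The median difference of the named middle genes at 0 h was 0.55 (log2), unlike that of the members. The array labelled mre11delta minus wild type at 0 h had a median of -0.18 over the members and of -0.12 over all genes. In the arrays of wild type and mre11delta at 0 h, which the choice did not use, 19 of 47 members (40.4%) had a signal below 21 in both, against 5.29% of all genes, 17.8% of unnamed ORFs and 20 of 48 named middle genes. For these ORFs the size of a change depends on the value of 7 added to each signal. In 12 members (25.5%) all 4 arrays at 0 h were below 21, against 3.07% of all genes, 10.2% of unnamed ORFs and 22.9% of the named middle genes.

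The 2 selected mutants also differed from each other. At 4 h spo11Y135F was above rad50delta in 46 of 47 members, against 35.6% of all genes, with YLL053C again the exception. It was at least 2-fold above in 15 members (31.9%), against 5.29% of all genes. Among the 370 named genes that met the same thresholds the shares were 94.6% above and 32.7% at least 2-fold above. Neither count thus sets the members apart from those 370 genes. Of the 48 named middle genes, spo11Y135F was above in 43 (89.6%) but at least 2-fold above in only 5 (10.4%). The median difference was 0.75 (log2) for the members, 0.62 for the named middle genes and -0.31 for all genes. In the named early genes spo11Y135F was above rad50delta in 0 of 27, although all 27 rose in both mutants. The arrays compared are those that chose the members. Over time the median gene changed by -0.10 in spo11Y135F and by 0.62 in rad50delta, and the part of this in the counts was not tested. Of the 1049 genes that rose in both, 72.2% were higher in spo11Y135F at 4 h. With the arrays centred on their medians the count stayed at 46 of 47 members, against 51.7% of all genes. The largest differences were those of YLR012C at 2.21, from signals of 11.4 and 78.1, and of YNR014W at 2.06, from 351 and 1483.

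**Figure D4:**
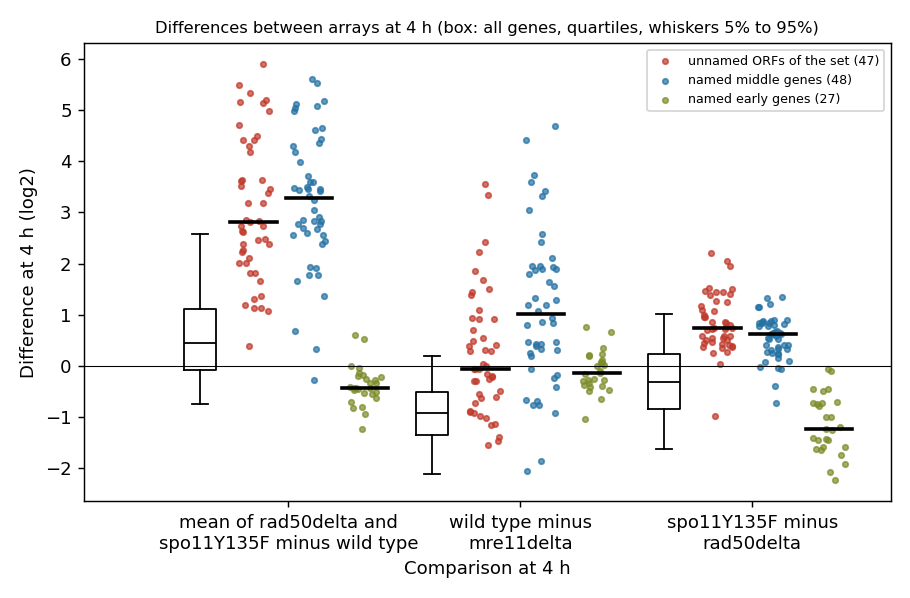
Differences between arrays at 4 h (log2) for the 47 unnamed ORFs, 48 named middle genes and 27 named early genes, 1 point per gene with the median as a bar, beside a box for all 5445 genes. The ORFs have medians of 2.81, -0.06 and 0.75 from left to right, and in the last comparison 46 of the 47 lie above 0 while all 27 early genes lie below.

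The members lie on 14 chromosomes, 20 on the Watson and 27 on the Crick strand by their systematic names. In the order of genes in the annotation, 9 of the 47 had a direct neighbour that met the same thresholds, a share of 19.1% against 13.3% of all genes with a measured neighbour. Of the 34 measured neighbours on the same strand 6 (17.6%) met them, against 7.57% over all genes. These 6 include YLR030W and YLR031W, and AQY2, which overlaps its neighbour YLL053C. The difference in shares was not tested. The shares were 6.9% against 7.64% for divergent neighbours and 4.76% against 7.97% for convergent ones. YLR030W and YLR031W are neighbours on the same strand and both members, so that each counts for the other. YLR030W read 0.6 to 1.2 at 0 h and 5.5 in wild type, 13.5 in mre11delta, 267 in rad50delta and 766 in spo11Y135F at 4 h, and YLR031W read 14.3 to 23.3 at 0 h and 39.4, 78.2, 252.5 and 682 at 4 h. Both have the same order of strains at 4 h, with wild type lowest.

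Some of the other neighbours also rose from low levels in the 2 selected mutants. UBC11, which encodes a ubiquitin-conjugating enzyme and converges on YOR338W, read 1.1 to 1.5 at 0 h and 84.2 in wild type, 14.4 in mre11delta, 3123 in rad50delta and 6707 in spo11Y135F at 4 h. HXT10, a hexose transporter gene beside YFL012W on the same strand, read 6.6 to 16.9 at 0 h and 2.7, 1.7, 106 and 868 at 4 h. GAT3, a GATA family factor gene divergent from YLR012C, read 0.9 to 7.2 at 0 h and 34.2, 32.7, 264 and 725 at 4 h. YLL053C overlaps AQY2, a water channel gene on the same strand, which read 229, 68.8, 468 and 208 at 4 h, so that probes for either can read RNA of the other and both are uncertain. The other neighbours past the thresholds were FET5 beside YFL040W, EFG1 beside YGR273C and MRL1 beside YPR078C, and YGR273C and YPR078C rose much further than these neighbours.

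Of the members, 3 have further probe sets that the choice did not use. The 2 other sets of YPR078C, which can also read related genes, read 241 and 230 in wild type, 42.3 and 80.4 in mre11delta, 4793 and 4102 in rad50delta and 6981 and 4431.5 in spo11Y135F at 4 h, and 1.0 to 131.5 at 0 h. The second set of YEL073C read 37.9 to 136 at 0 h and 103, 127, 1051 and 1900.4 at 4 h, in the same order of strains. For both ORFs the sets on the array gave the same 2 strains as highest. In mre11delta the 2 other sets of YPR078C rose by 2.62 and 2.89 (log2), against 0.99 for the set used. By these other sets YPR078C rose in both wild type and mre11delta. YGR161W-C has a set that followed the thresholds, at 382 in wild type, 199.5 in mre11delta, 2133 in rad50delta and 3469 in spo11Y135F at 4 h, and a gene-specific set that read 0.5 to 17.6 over all 8 arrays. Its other set read 531, 408, 2549 and 3191 at 4 h and 584, 464, 974 and 1389 at 0 h, and YGR161W-C would not be a member by its dimmer gene-specific set.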

How the data were processed

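The authors deposited 1 linear signal intensity per probe set and array, made with MAS5 per the submitters' processing notes. Its version and any scaling between arrays are not stated there. Of 9335 probe sets, 6504 carry 1 gene in the platform annotation, and RefSeq's annotation (assembly R64) was used for names and gene order only. For each of 5445 genes the plain gene-specific probe set with the highest mean was used, without further scaling, as log2(signal + 7). No filter on low values was set, and signals below 21 are called low. For these 8 arrays, their number limits the precision.

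No test was made, since each strain and time has 1 array and a test over all strains would rest on arrays that chose the members. Members are given as counts and medians beside all genes. Members and lists were chosen with earlier results of these data known. ORFs named with all 8 values are those with the highest signal at 4 h in the 2 mutants, the largest and smallest wild type change, the largest and smallest margin over the thresholds, and those that just missed, with exceptions stated. Alternatives were other pseudocounts, median centring, quantile normalization, a filter at 21, other probe sets and a fold of 3. Promoter and protein sequences were not analysed here. Calculations used Python 3.11.15, numpy 2.4.6 and pandas 2.3.3.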

Additional observations from a re-analysis of the deposited data

Results flagged for a closer look

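In 5 members the direction over time differed between strains, with a fall of at least 2-fold in wild type or in the array labelled mre11delta against a rise in both rad50delta and spo11Y135F. The difference was not tested, since each strain has 1 array per time. YHR020W changed by -2.77 (log2) in wild type and -1.17 in mre11delta, and YCR087C-A by -2.59 and -1.57. YDL241W changed by -2.31 in wild type and -1.19 in mre11delta, and YML119W by -1.30 and -1.18. YLL053C changed by -1.61 in mre11delta and by -0.67 in wild type, which is less than 2-fold. YHR020W, YCR087C-A and YDL241W missed the thresholds both with the arrays centred on their medians and with quantile normalization.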

How the results depend on the processing

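Of 94 recomputed values, 80 stayed within 1.5 times the count or the fold reported and 14 moved further. With median centring 23 members were at least 2-fold higher in wild type than in mre11delta at 4 h (median 0.97), 13 rose in mre11delta (median change 0.11), and wild type minus the mean of the 2 selected mutants had a median of -2.13. With quantile normalization these values were 21 (0.86), 12 (0.36) and -2.19, so that the sign of the difference between wild type and mre11delta follows the scaling. The rule itself took 39 ORFs with median centring and 40 with quantile normalization, and 34 of the 47 members were kept under both. With a fold of 3, 31 ORFs met the rule. Of the 47 members, 14 rose at least 3-fold in wild type, against 8.82% of all genes. At 4 h 6 of the 47 were at least 3-fold higher in wild type than in mre11delta, against 0.90% of all genes. Settings chosen after seeing the data put wild type in place of mre11delta at 4 h, which gave 67 ORFs, 46 of them members, or dropped the condition on mre11delta, which gave 97. Without rad50delta in the thresholds 57 ORFs met them, and without spo11Y135F 43. The planned search for promoter motifs was not run. Low signals limit the size of changes, since 25 members (53.2%) were below 21 in at least 1 array at 0 h, against 10.8% of all genes.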
